A study of Arabidopsis thaliana with 36 samples.

Results

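The flg22 by iron (Fe) interaction in wild-type roots of Arabidopsis thaliana compares the response to flg22, a peptide of bacterial flagellin, between Fe-deficient and Fe-sufficient roots. It was taken from RNA sequencing of the 4 wild-type (Col-0, WT) groups of 3 libraries, 12 of the 36 libraries of the series, as the difference of flg22-treated and untreated roots without Fe minus the same difference with Fe. Seedlings of 7 days, raised with Fe, were moved for 24 h to liquid medium holding 75 µM Fe (+Fe) or 50 µM FerroZine, an Fe chelator (-Fe), and 100 nM flg22 was either added or left out. A library pooled about 15 roots, so the p-values measure the spread between such pools. The other libraries came from fls2, a mutant of the flagellin receptor, and from IMA1ox, a line that expresses the Fe signalling peptide IMA1 fused to mCitrine from the UBQ10 promoter, each under the same 4 treatments.

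As background, roots short of Fe switch on a cascade of IMA peptides, the bHLH factors of subgroup Ib and the factor FIT. This cascade raises the reductase FRO2, the transporter IRT1 and the secretion of coumarins. The hemerythrin-containing ubiquitin ligases BTS, BTSL1 and BTSL2 restrain this cascade, and Fe storage genes such as the ferritin FER1 are lowered by it. The receptor kinase FLS2 binds flg22 and starts a transcriptional immune response in the root.

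In these WT roots flg22 changed many genes at either Fe supply, and few genes passed a test of whether that effect differed with Fe. Of 20354 genes tested, 50 (0.246%) passed the edgeR quasi-likelihood test of the interaction at a Benjamini-Hochberg adjusted p under 0.05, which is what "called" means below. The flg22 effect was lower without Fe than with Fe in 27 of them (0.133%) and higher in 23 (0.113%). At an unadjusted p under 0.05 there were 1557 genes (7.65%), and a gene that was not called is not shown to have equal effects. The simple effects were far more common: flg22 was called for 8170 genes with Fe (40.1%, with 20.8% higher and 19.4% lower) and for 7118 genes without Fe (35%, with 18.2% higher and 16.8% lower). Both effects were called in 5287 genes, 64.7% of those called with Fe and 74.3% of those called without, and 16 of these had opposite signs. Across all 20354 genes, which are not independent replicates, the log2 effects at the 2 supplies came from separate libraries and had a Pearson correlation of 0.819 and a Spearman correlation of 0.770.

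**Figure D1:**
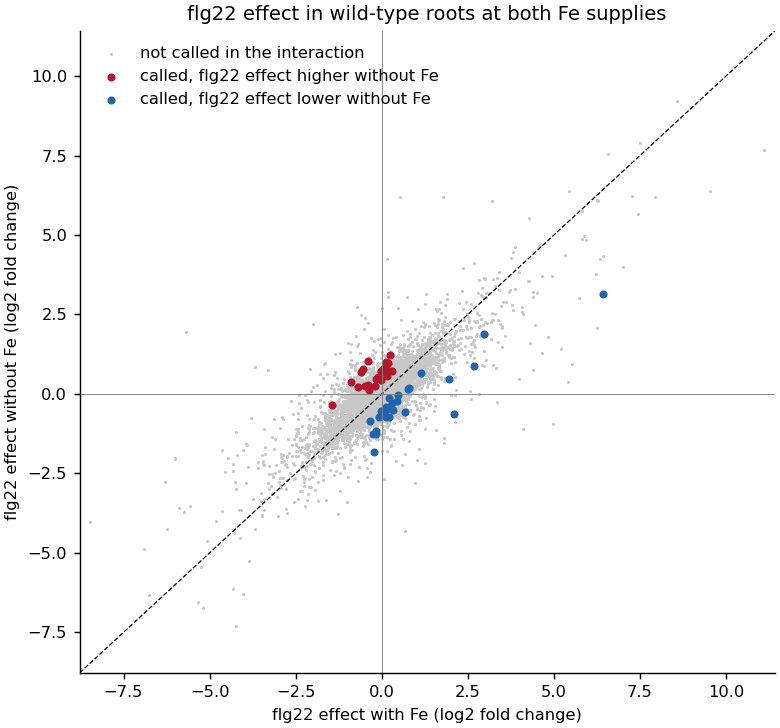
The log2 flg22 effect without Fe (vertical axis) against that with Fe (horizontal axis) for 20354 genes, each axis from 6 WT libraries, with the dashed line marking equal effects. The 27 blue genes lie below the line and the 23 red genes above it, most of them close to the centre of the cloud rather than among the strongest flg22 responses.

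WT libraries held 28959667 to 35631889 counts. One WT library, -Fe replicate 3, stood apart from its group: 90 genes lay over 2-fold from the mean of its group mates, against 14 to 53 genes in the other 11 WT libraries. Another, -Fe flg22 replicate 2, weighs most on the count, since 20 genes were called without it, 19 of them among the 50. There were 30 without +Fe replicate 3 and 33 without +Fe flg22 replicate 1, and 36 to 61 without any other. Without both -Fe replicate 3 and an IMA1ox library that also stood apart, a setting added after the data were seen, 88 were called, 44 of them among the 50. Of the 50 genes, 16 stayed called whichever of the 12 libraries was left out, and the other 34 lost the call without at least 1 of them. A fit of the 12 WT libraries alone, with fewer degrees of freedom, called 19 genes, 14 of them among the 50. These 14 were ZIF1, ATPK7, BTSL2, IREG2, UGT76B1, PUB23, TPPG and AHP4 on the lower side and LAC7, UGT73B2, scpl5, AT3G44326, EULS3 and AT3G22620 on the higher side, so the other 36 genes named below as called lost the call in that fit. On the same counts DESeq2 over all libraries called 131, which held all 50. Root markers were present throughout: the 10 root hair genes of a list summed to 636 to 903 CPM (counts relative to the library size, which was scaled by TMM) in untreated and 383 to 581 CPM in flg22-treated libraries. The 9 Casparian strip and endodermis genes summed to 353 to 473 CPM in untreated and 218 to 280 CPM in flg22-treated libraries, and the 11 green shoot genes to 193 to 320 and 322 to 605 CPM. The dividing cell genes summed to 257 to 317 and 194 to 230 CPM, the stele genes to 258 to 293 and 203 to 224 CPM, and the root cap genes to 16.7 to 26.2 and 21.2 to 26.5 CPM. All of these sums but that of the root cap genes lay apart between untreated and flg22-treated libraries, and their part in the results was not tested. Of 50 genes tested on 6 such cell type lists, edgeR, DESeq2 and limma called 0 in the interaction, and 1 had an unadjusted p under 0.05. Over all genes edgeR called 0.246%, so 0 of 50 is near that share, and 7.65% had an unadjusted p under 0.05. In bulk roots, fewer cells of a type and less RNA per cell cannot be told apart.

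ZIF1, NRAMP4, BTS and BTSL2, which act in metal handling or in restraining the Fe deficiency response, were among the 27 genes with a lower flg22 effect without Fe. BTSL1, the close paralog of BTSL2, was not called (log2 -0.57, adjusted p = 0.240). ZIF1 (AT5G13740), which loads the metal chelator nicotianamine into the vacuole, had the smallest adjusted p of all genes. ZIF1 stood at 24.5, 23.2 and 24.3 CPM with Fe, at 44.4, 34.6 and 36 CPM with Fe and flg22, at 86.5, 73.7 and 80.4 CPM without Fe, and at 62.9, 42.8 and 57.4 CPM without Fe but with flg22. The untreated -Fe libraries were the highest, and flg22 moved the gene up with Fe (log2 0.67, adjusted p = 1.64e-05) and down without Fe (log2 -0.56, adjusted p = 9.53e-05). The interaction was -1.24 ± 0.15 (log2, standard error, 3 libraries a group; edgeR adjusted p = 5.57e-05).

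NRAMP4 (AT5G67330), which releases metals from the vacuole, had 40.4, 43.0 and 41.5 CPM with Fe, 49.7, 48.1 and 47.2 CPM with Fe and flg22, 131, 97.0 and 94.0 CPM without Fe, and 72.4, 51.7 and 69.5 CPM without Fe but with flg22. No 2 of these groups overlapped. Its flg22 effect was 0.22 with Fe (adjusted p = 0.0817) and -0.73 without Fe (adjusted p = 1.33e-06), an interaction of -0.95 ± 0.14 (log2; adjusted p = 9.39e-04). BTS (AT3G18290) had 59.3, 60.2 and 52.6 CPM with Fe, 65.3, 60.1 and 63.3 CPM with Fe and flg22, 193, 150 and 139 CPM without Fe, and 107, 82.8 and 97.9 CPM without Fe but with flg22. Thus flg22 lowered BTS in the Fe-deficient roots (log2 -0.74, adjusted p = 7.84e-07), the groups with Fe overlapped, and the interaction was -0.88 ± 0.13 (adjusted p = 0.00160). BTSL2 (AT1G18910), its root paralog, had 57.8, 56.6 and 55.8 CPM with Fe, 63.6, 62.9 and 57.7 CPM with Fe and flg22, 87.6, 77.1 and 85.3 CPM without Fe, and 66.3, 59.5 and 60.6 CPM without Fe but with flg22. The untreated -Fe group of BTSL2 lay above all the others (interaction -0.54 ± 0.08, adjusted p = 0.00160). ZIF1, NRAMP4, BTS and BTSL2 stayed called without any 1 of the 12 libraries. In the fit of WT alone, ZIF1 and BTSL2 stayed called and NRAMP4 (adjusted p = 0.141) and BTS (adjusted p = 0.103) did not.

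**Figure D2:**
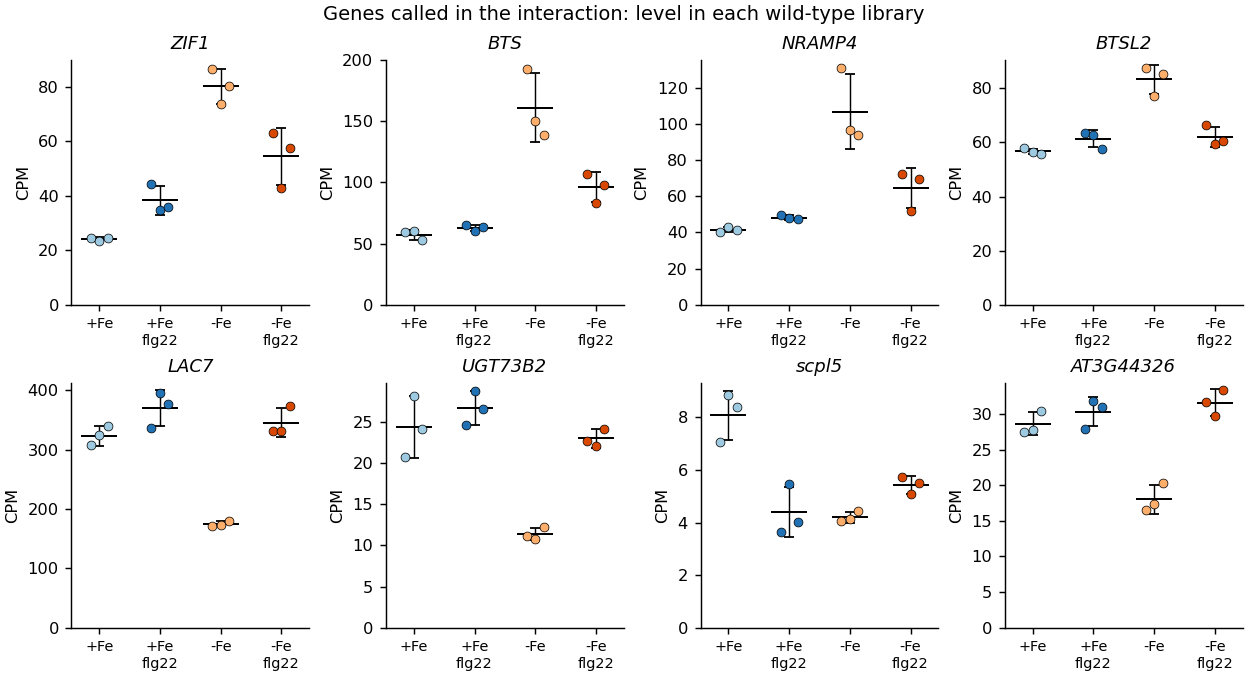
Level in CPM of 8 genes called in the interaction, by treatment; points are the 3 WT libraries of a group, horizontal lines the mean and bars the SD. In the upper row the untreated -Fe group is the highest and lies lower with flg22, and in the lower row its mean is the lowest and lies higher with flg22, although in scpl5 the +Fe flg22 group is about as low.

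Further metal transporters were called with less stable support. IREG2 (AT5G03570), a vacuolar transporter of the ferroportin family, had 21.4, 25.7 and 22.7 CPM with Fe, 21, 20.2 and 20.8 CPM with Fe and flg22, 54.9, 44.4 and 54.7 CPM without Fe, and 24.6, 18.8 and 25.3 CPM without Fe but with flg22. With flg22 the 2 Fe supplies overlapped (interaction -1.0 ± 0.19, adjusted p = 0.0155). The IREG2 call was lost without +Fe replicate 1 (adjusted p = 0.0603), +Fe replicate 3 (0.0527) or -Fe flg22 replicate 2 (0.0838). HMA3 (AT4G30120), a vacuolar pump for zinc and cadmium, ran from 2.37 to 4.87 CPM with Fe, 2.60 to 3.54 CPM with Fe and flg22, 12.1 to 14.3 CPM without Fe, and 3.14 to 4.46 CPM without Fe but with flg22 (interaction -1.61 ± 0.36, adjusted p = 0.0486). That call lies next to the threshold, and with 1 library left out it stayed only without +Fe replicate 2 or -Fe replicate 2, with adjusted p from 0.0509 to 0.179 without any other. HMA3 was also not called with the replicate block (0.0612), no filter (0.0532) or WT alone (0.0839).

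The other genes of this direction with the largest differences have varied or less known roles. ATPK7 (AT3G27580), an AGC protein kinase, had 23, 23 and 23.5 CPM with Fe, 29, 30.1 and 28.4 CPM with Fe and flg22, 51.5, 42.2 and 44.1 CPM without Fe, and 37.0, 27.4 and 33.1 CPM without Fe but with flg22. Its flg22 effect turned from 0.33 to -0.50, with both called, and the interaction of -0.83 ± 0.11 (adjusted p = 3.85e-04) stayed called without any 1 library and in WT alone. ORG1 (AT5G53450; -1.08 ± 0.23), the actin-binding NET3A (AT1G03470; -1.01 ± 0.21) and AT2G42750, a DNAJ protein (-0.76 ± 0.15), had adjusted p of 0.0288, 0.0210 and 0.0130. ORG1 was not called without +Fe replicate 1 (adjusted p = 0.0741) or 3 (0.122), +Fe flg22 replicate 3 (0.113), -Fe replicate 1 (0.0890) or -Fe flg22 replicate 2 (0.109). NET3A was not called without +Fe replicate 1 (0.0699) or 3 (0.0670), +Fe flg22 replicate 1 (0.0846), -Fe replicate 1 (0.0647) or -Fe flg22 replicate 2 (0.0838). AT2G42750 was not called without +Fe replicate 1 (0.0516) or 3 (0.0542) or -Fe flg22 replicate 2 (0.0722), and AT3G51540 (-0.69 ± 0.15, adjusted p = 0.0326) lost its call without any 1 of 8 libraries, with adjusted p up to 0.178.

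Some called genes outside the naming rule were picked after their values were seen. AHP4 (AT3G16360), a phosphotransfer protein of cytokinin signalling, had a highest library at 5.26 CPM, an untreated -Fe one, and an interaction of -2.73 ± 0.47 (adjusted p = 0.00552). NUDT18 (AT1G14860), a nudix hydrolase, had 40.4, 42.1 and 38.9 CPM with Fe and 54.4, 60.6 and 52.6 CPM with Fe and flg22. Without Fe it had 56.1, 52.8 and 62.3 CPM, and with flg22 in addition 57.3, 53.4 and 55.7 CPM. Either treatment alone raised NUDT18 to about the same level, and the 2 together did not lie above it (interaction -0.51 ± 0.09, adjusted p = 0.00842). MEE32 (AT3G06350), an enzyme of the shikimate pathway, had an interaction of -0.34 ± 0.06 (adjusted p = 0.00552), and AT3G54880 had one of -0.66 ± 0.12 (adjusted p = 0.00691). AHP4, NUDT18, MEE32 and AT3G54880 stayed called without any 1 library, but in WT alone NUDT18 (adjusted p = 0.0839), MEE32 (0.141) and AT3G54880 (0.141) did not. SAM1 (AT1G02500), which makes S-adenosylmethionine, the precursor of nicotianamine and ethylene, had a mean of 894 CPM with Fe, 839 CPM with Fe and flg22, 1551 CPM without Fe and 943 CPM without Fe but with flg22. Its interaction was -0.63 ± 0.13 (adjusted p = 0.0210), lost without +Fe replicate 1 (0.0683) or 3 (0.122), +Fe flg22 replicate 1 (0.0651) or 3 (0.0692), -Fe replicate 1 (0.0778) or -Fe flg22 replicate 2 (0.142).

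Of 18 immunity marker genes tested, 2 were called, PER5 and PEP2, both lower (0.133% of all genes were), with a median interaction of -0.35 against 0.00 over all genes tested. On this list 9 genes had an unadjusted p under 0.05, DESeq2 called 3 and limma 1. The direction of the list depended on the scale: 13 lay below 0 and 5 above in log2, but 8 below and 10 above in CPM. PER5 (AT1G14550), a class III peroxidase, had 0.371, 0.170 and 0.482 CPM with Fe, 26, 22.6 and 42.7 CPM with Fe and flg22, 4.13, 3.66 and 5.08 CPM without Fe, and 47.0, 31.8 and 34.7 CPM without Fe but with flg22. Both flg22 effects were called (log2 6.43 with Fe and 3.14 without), and the interaction was -3.29 ± 0.65 (adjusted p = 0.0194). The untreated groups lay apart from each other and the flg22-treated groups overlapped. On the CPM scale flg22 added 30.1 CPM with Fe and 33.5 CPM without, so PER5 is the 1 called gene whose difference of differences has the other sign in CPM. PER5 lies next to a close paralog, PER4 (AT1G14540, -0.89 ± 0.41, adjusted p = 0.606), and how reads that match both were counted is not given in the sources used here. By limma-trend on log2 CPM plus 1 the PER5 interaction was -1.64 and not called (adjusted p = 0.0574), and in WT alone it was -3.28 and not called (0.0846). The PER5 call was also lost without any of the 3 +Fe libraries (adjusted p = 0.0699, 0.0814 and 0.0583), -Fe replicate 3 (0.0506) or -Fe flg22 replicate 2 (0.0664).

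PEP2 (AT5G64890), the precursor of a danger peptide, had 0.827, 0.817 and 1.13 CPM with Fe, 3.46, 3.17 and 4.21 CPM with Fe and flg22, 2.63, 3.07 and 2.98 CPM without Fe, and 4.90, 3.57 and 3.48 CPM without Fe but with flg22. The interaction was -1.49 ± 0.29 (adjusted p = 0.0125), not called without +Fe replicate 1 (0.0510) or -Fe flg22 replicate 2 (0.0532). UGT76B1 (AT3G11340), a glucosyltransferase that inactivates salicylic acid and N-hydroxypipecolic acid, had 100, 98.2 and 97.5 CPM with Fe, 108, 111 and 95.9 CPM with Fe and flg22, 156, 159 and 139 CPM without Fe, and 109, 93.0 and 109 CPM without Fe but with flg22. Here only the untreated -Fe group lay apart (interaction -0.63 ± 0.12, adjusted p = 0.0125, and 0.0664 without -Fe flg22 replicate 2). PUB23 (AT2G35930), a ubiquitin ligase that restrains immune signalling and was picked after its values were seen, was raised by flg22 with Fe (log2 0.80, adjusted p = 2.47e-08), while its effect without Fe was 0.19 (adjusted p = 0.0666). Its interaction was -0.61 ± 0.12 (adjusted p = 0.0125, and 0.0637 without -Fe flg22 replicate 2). AT1G13480, a gene of unknown function, was raised by flg22 at both supplies (log2 2.97 with Fe and 1.88 without), with an interaction of -1.09 ± 0.22 (adjusted p = 0.0210). Its call was lost without +Fe replicate 1 (0.0641) or 3 (0.0912), +Fe flg22 replicate 3 (0.0792), -Fe replicate 2 (0.0741) or -Fe flg22 replicate 2 (0.0898) or 3 (0.0650).

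The immune genes FRK1, WRKY33, MYB51, CYP81F2 and FLS2 were raised by flg22 at both Fe supplies with no called difference. They do not stand for all immunity markers, since PER5 and PEP2 were called. PER4 was also raised at both supplies and not called, with a 95% interval of -1.73 to -0.05. FRK1 (AT2G19190), a receptor-like kinase used as a marker of flagellin perception, had 0.285, 0.272 and 0.312 CPM with Fe, 24.8, 19.4 and 23.6 CPM with Fe and flg22, 0.532, 0.294 and 0.201 CPM without Fe, and 28, 23.6 and 20.6 CPM without Fe but with flg22. The treated groups overlapped, and the interaction was -0.17 with a 95% interval of -2.69 to 2.35 (adjusted p = 0.992), which is too wide to show equal effects. The interval was narrower for WRKY33 (AT2G38470), a defence transcription factor: its flg22 effect was 1.03 with Fe and 0.91 without, and the interaction was -0.12 (95% interval -0.56 to 0.33, adjusted p = 0.962). MYB51, an activator of indole glucosinolates, had an interaction of -0.42 (95% interval -1.09 to 0.25), and CYP81F2, which modifies them, had one of 0.90 (95% interval -0.19 to 1.99). FLS2 itself (AT5G46330) had 1.23, 0.783 and 1.59 CPM with Fe, 5.24, 4.17 and 5.62 CPM with Fe and flg22, 2.24, 2.39 and 2.24 CPM without Fe, and 7.35, 5.16 and 5.55 CPM without Fe but with flg22. Its transcript was raised by flg22 at both supplies, and the interaction was -0.65 (95% interval -1.42 to 0.12, adjusted p = 0.731). None of 11 immune receptors and co-receptors was called by edgeR, DESeq2 or limma (median -0.07, 2 genes at an unadjusted p under 0.05). Among 19 WRKY factors edgeR and limma called 0 and DESeq2 called 1 (median -0.06, 5 at an unadjusted p under 0.05). Over all genes edgeR called 0.246%, so 0 in lists of this size is near that share.

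Genes with a higher flg22 effect without Fe mostly stood low in untreated Fe-deficient roots and near the Fe-sufficient level once flg22 was present. LAC7 (AT3G09220), a laccase, had 307, 324 and 339 CPM with Fe, 336, 396 and 377 CPM with Fe and flg22, 172, 173 and 179 CPM without Fe, and 331, 331 and 373 CPM without Fe but with flg22. Only the untreated -Fe group lay apart (flg22 effect 0.19 with Fe and 0.98 without, interaction 0.79 ± 0.15, adjusted p = 0.0125). UGT73B2 (AT4G34135), a flavonoid glucosyltransferase, had 20.8, 28.2 and 24.1 CPM with Fe, 24.6, 28.8 and 26.6 CPM with Fe and flg22, 11.1, 10.8 and 12.2 CPM without Fe, and 22.7, 22.1 and 24.2 CPM without Fe but with flg22. Again the untreated -Fe group lay below all others. The +Fe group overlapped with both flg22-treated groups, which lay just apart from each other (interaction 0.88 ± 0.16, adjusted p = 0.00636). AT3G44326, an F-box gene, also had its lowest level in the untreated -Fe group, with 27.5 to 30.4, 27.9 to 31.8, 16.5 to 20.3 and 29.7 to 33.4 CPM with Fe, with Fe and flg22, without Fe, and without Fe but with flg22 (interaction 0.73 ± 0.13, adjusted p = 0.00552).

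In scpl5 (AT1G73290), a serine carboxypeptidase-like gene, flg22 and Fe deficiency each went with a lower level. It had 7.05, 8.85 and 8.39 CPM with Fe, 3.66, 5.47 and 4.04 CPM with Fe and flg22, 4.05, 4.12 and 4.45 CPM without Fe, and 5.74, 5.07 and 5.49 CPM without Fe but with flg22. The flg22 effect was -0.88 with Fe (adjusted p = 4.68e-05) and 0.37 without (adjusted p = 0.0628), and the interaction was 1.25 ± 0.22 (adjusted p = 0.00552). AT1G55240 was lowered by flg22 with Fe (log2 -1.43, adjusted p = 2.24e-08) and had an effect of -0.34 without Fe (adjusted p = 0.0649), an interaction of 1.08 ± 0.21 (adjusted p = 0.0125). These 5 genes stayed called without any 1 library, as did EULS3 (AT2G39050), a lectin gene (0.63 ± 0.12, adjusted p = 0.0125), and FMO GS-OX4 (AT1G62570), which oxidises the sulfur of glucosinolates (0.68 ± 0.12, adjusted p = 0.00552), both picked after their values were seen. In WT alone AT1G55240 (adjusted p = 0.125) and FMO GS-OX4 (0.0599) were not called.

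GPAT7 (AT5G06090), an acyltransferase of suberin synthesis, had 6.59, 6.87 and 5.67 CPM with Fe, 4.14, 5.01 and 4.07 CPM with Fe and flg22, 4.05, 2.75 and 2.21 CPM without Fe, and 5.36, 5.75 and 4.67 CPM without Fe but with flg22. The flg22 effect was -0.53 with Fe and 0.80 without, both called, and the interaction of 1.33 ± 0.27 (adjusted p = 0.0188) was lost without +Fe flg22 replicate 1 (0.0566) or -Fe flg22 replicate 2 (0.0741). GPAT7 was the 1 called gene among 17 suberin genes, 16 of which had an interaction above 0 (median 0.39 against 0.00 over all genes, of which 0.113% were called higher and 51.4% lay above 0). On the suberin list 7 genes had an unadjusted p under 0.05, and DESeq2 and limma called 1 each. Of 21 tau and phi glutathione transferases, 17 lay above 0 (median 0.32), 7 had an unadjusted p under 0.05, DESeq2 called 2 and limma 1, and edgeR called 1, GSTU1 (AT2G29490; 0.63 ± 0.13, adjusted p = 0.0191), which lost the call without +Fe replicate 2 (0.0636), +Fe flg22 replicate 1 (0.0672) or -Fe flg22 replicate 3 (0.0533).

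The remaining large differences in this direction were less stable. UMAMIT29 (AT4G01430), an amino acid exporter, had an interaction of 1.3 ± 0.27 (adjusted p = 0.0273) and lost the call without any 1 of 8 libraries, with adjusted p from 0.0512 to 0.142. NYC1 (AT4G13250), a chlorophyll b reductase, had 0.96 ± 0.22 (adjusted p = 0.0486) and lost it without any 1 of 10 libraries, with adjusted p from 0.0592 to 0.178. NYC1 was also not called with library totals (0.0542), no filter (0.0512), the 5 CPM filter (0.0509), limma-trend (0.0554) or WT alone (0.192). CKX5 (AT1G75450), which degrades cytokinin, had 0.91 ± 0.18 (adjusted p = 0.0191, and 0.0580 to 0.0962 without +Fe replicate 2, +Fe flg22 replicate 1, -Fe replicate 2 or -Fe flg22 replicate 2 or 3). IAGLU (AT4G15550), an auxin glucosyltransferase, had 0.74 ± 0.15 (adjusted p = 0.0190, and 0.0517 to 0.0741 without +Fe replicate 3, +Fe flg22 replicate 1, -Fe replicate 2 or -Fe flg22 replicate 2). HHP1 (AT5G20270), a heptahelical membrane protein, had 0.75 ± 0.15 (adjusted p = 0.0191, and 0.0506 to 0.0741 without +Fe replicate 2, +Fe flg22 replicate 1, -Fe replicate 3 or -Fe flg22 replicate 2). AT3G43670, a copper amine oxidase, had 0.71 ± 0.13 (adjusted p = 0.0125, and 0.0546 without +Fe replicate 3 or 0.0558 without -Fe flg22 replicate 2). ABCI8 (AT4G04770), a scaffold of iron-sulfur cluster assembly in plastids that was picked after its values were seen, had 0.46 ± 0.10 (adjusted p = 0.0455) and lost the call without any 1 of 9 libraries, with adjusted p from 0.0512 to 0.196, and also with library totals (0.0598), no filter (0.0512), limma-trend or WT alone (0.238).

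The other 13 called genes, listed after their values were seen, each lost the call without at least 1 library. On the lower side these were AT4G15680, a member of the thioredoxin superfamily (-1.80), BRG3 (-0.61), the trehalose-6-phosphate phosphatase gene TPPG (-0.60), GATA12 (-0.52), AT2G35840 (-0.52) and AT1G11540 (-0.47, lost without -Fe flg22 replicate 3 alone). On the higher side they were ABCG16 (1.44, lost without any 1 of 11 libraries), AT2G36885 (0.62), AT3G22620 (0.50), ABCC4 (0.47), the ascorbate peroxidase gene SAPX (0.45), AT5G45410 (0.41) and AT5G40510 (0.41).

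Every called gene was also called for Fe deficiency without flg22, a comparison that shares the untreated WT libraries with the interaction and so is no separate evidence. All 27 genes with a lower flg22 effect were raised by Fe deficiency (3.12% of all genes were) and all 23 with a higher effect were lowered (2.85% of all genes). The mean of the untreated -Fe group was the highest of the 4 in 20 of the 27 and the lowest in 20 of the 23. The fls2 libraries, which the WT contrast does not use, gave the same signs: Fe deficiency in untreated fls2 was above 0 in 27 of the 27, with 21 called higher (1.15% of all genes), and below 0 in 23 of the 23, with 13 called lower (0.968% of all genes). In flg22-treated WT, Fe deficiency was called for 4 of the 27 and 1 of the 23, against 0.138% of all genes. Read as flg22 effects, the signs were opposite at the 2 supplies in 13 of the 27 and 13 of the 23. In the 27, the flg22 effect was called positive with Fe in 15 (20.8% of all genes) and negative without Fe in 18 (16.8%). In the 23, it was called negative with Fe in 9 (19.4% of all genes) and positive without Fe in 18 (18.2%). The interaction that chose these genes is the difference of the 2 flg22 effects, so their opposed signs are no separate evidence.

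Across all genes, Fe deficiency was called for 1216 genes (5.97%) without flg22 and for 28 genes (0.138%) with flg22. At an unadjusted edgeR p under 0.05 there were 3856 genes (18.9%) without flg22 and 2109 genes (10.4%) with it. The size of the contrast thus depends on the threshold. The called counts also depend on single libraries. Fe deficiency with flg22 gave 160 genes without +Fe flg22 replicate 3, 12 without +Fe flg22 replicate 1, 8 without +Fe flg22 replicate 2 and 13 without -Fe flg22 replicate 1. Without flg22 there were 719 genes without +Fe replicate 2 and 698 without +Fe replicate 3.

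The best known Fe uptake genes were not called in the interaction, and their libraries varied widely. IRT1 (AT4G19690) had 181, 362 and 119 CPM with Fe, 13.9, 2.34 and 121 CPM with Fe and flg22, 1689, 1225 and 1166 CPM without Fe, and 285, 90.3 and 258 CPM without Fe but with flg22. Treatment with flg22 lowered it at both supplies (log2 -2.27 with Fe, adjusted p = 0.0131, and -2.69 without, adjusted p = 0.00459). On the log2 scale the effects differed by -0.42, with a 95% interval of -2.38 to 1.54 (adjusted p = 0.971), and limma-trend gave 0.62. With flg22, the mean level fell by 175 CPM with Fe and fell by 1149 CPM without.

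FRO2 (AT1G01580), the ferric reductase, had 86.1, 213 and 46.2 CPM with Fe, 6.57, 2.40 and 74.5 CPM with Fe and flg22, 1151, 848 and 824 CPM without Fe, and 185, 39.5 and 150 CPM without Fe but with flg22. Its interaction was -0.86 (95% interval -2.98 to 1.26, adjusted p = 0.927), on flg22 effects of -2.05 and -2.92, both called. Both genes stood high in +Fe flg22 replicate 3, and without that library the interaction was 2.08 for IRT1 (adjusted p = 0.362) and 1.77 for FRO2 (adjusted p = 0.581). FIT (AT2G28160) had 32.4, 52.2 and 38.0 CPM with Fe, 22.5, 22 and 25.4 CPM with Fe and flg22, 83.7, 68.8 and 93.0 CPM without Fe, and 29.3, 24.8 and 29.7 CPM without Fe but with flg22. It was lowered by flg22 at both supplies (log2 -0.81 and -1.55), and the interaction was -0.74 (95% interval -1.25 to -0.23, adjusted p = 0.312).

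**Figure D3:**
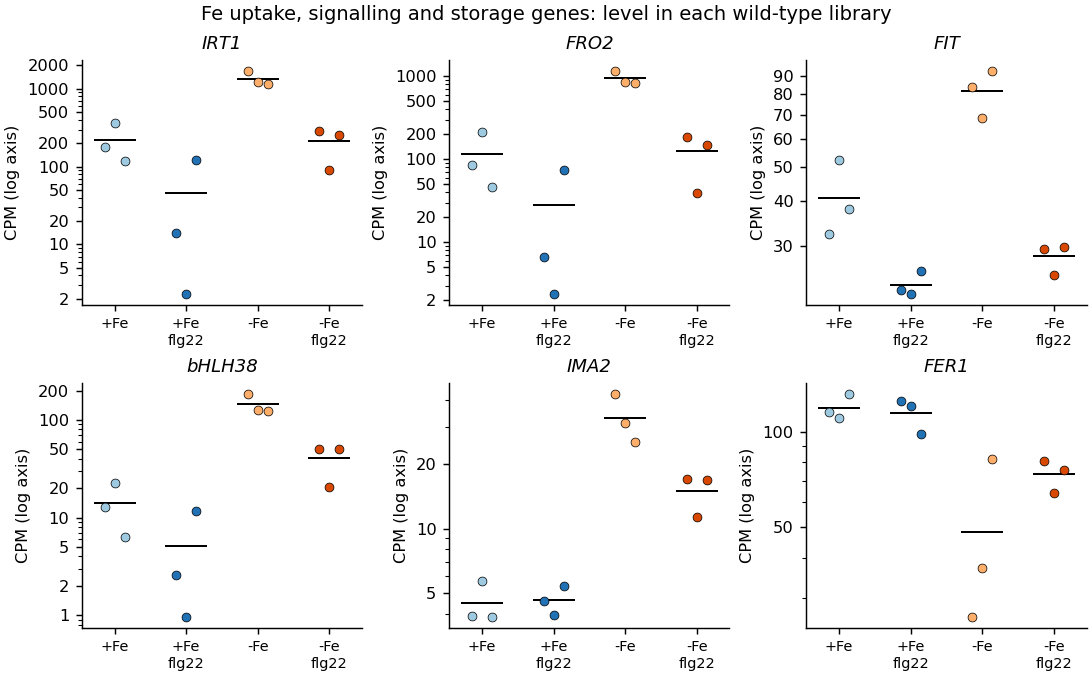
Level in CPM on a log axis of 6 Fe genes by treatment; points are the 3 WT libraries of a group and lines the mean. IRT1, FRO2 and bHLH38 spread over a wide range in the +Fe flg22 group, where replicate 3 is the highest point, and IMA2 and FER1 sit at nearly the same level with Fe whether or not flg22 was given.

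In the same cascade, the peptide genes and subgroup Ib factors had the lower direction with wide intervals. IMA1 had an interaction of -1.06 (95% interval -1.78 to -0.35, adjusted p = 0.297), and IMA2 had one of -1.20 (-1.97 to -0.43, adjusted p = 0.264). IMA2 held 3.91, 5.68 and 3.88 CPM with Fe, 4.59, 3.94 and 5.40 CPM with Fe and flg22, 42.5, 31.2 and 25.4 CPM without Fe, and 17, 11.3 and 16.8 CPM without Fe but with flg22. Among the bHLH genes the interaction was -0.38 for bHLH38, -1.01 for bHLH39, -0.64 for bHLH100 and -1.17 for bHLH101, and bHLH38 (1.15) and bHLH100 (2.42) changed sign without +Fe flg22 replicate 3. PYE (AT3G47640), a factor that acts beside FIT, missed the threshold narrowly (-0.54 ± 0.12, adjusted p = 0.0539). It passed with library totals alone (0.0437), DESeq2 (0.0142) and limma-trend (0.0484), and without +Fe replicate 2 (0.0483), +Fe flg22 replicate 2 (0.0355), -Fe replicate 2 (0.0263) or -Fe replicate 3 (0.0368). IMA3 (-1.95, 95% interval -3.64 to -0.27, adjusted p = 0.513) passed with limma-trend (0.00854) and without +Fe replicate 2 (-4.20, adjusted p = 0.0270).

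As lists, 16 Fe deficiency regulators and targets held 3 called genes (BTS, BTSL2 and ZIF1), 15 of them below 0 and a median interaction of -0.91, where 0.133% of all genes were called lower and 9895 of 20354 lay below 0. On this list 12 genes had an unadjusted p under 0.05, DESeq2 called 6 and limma 5. Their median Fe deficiency effect was 2.64 without flg22 and 1.53 with it. The 18 genes of FIT-dependent uptake and coumarins held 2 called genes (HMA3 and IREG2), 16 below 0 and a median of -0.71 (8 at an unadjusted p under 0.05, 2 by DESeq2 and 2 by limma), with a median flg22 effect of -0.83 with Fe and -1.79 without. The coumarin gene F6'H1, for the first hydroxylation step, had -0.76 (95% interval -1.29 to -0.23, adjusted p = 0.337), while CYP82C4 and S8H, which oxidise coumarins further, had intervals of -2.59 to 3.48 and -4.62 to 6.24. In CPM, the difference of differences was below 0 in 15 of the 16 and 18 of the 18. An equal fold decrease from a higher -Fe level also gives a CPM difference below 0, so these signs are no separate evidence. CYP82C4 and S8H lay below 0 in CPM (-173 and -9.04) although their log2 interactions were 0.44 and 0.81. The 5 upstream bHLH regulators that activate the subgroup Ib genes had a median of -0.06 (0 called, 1 at an unadjusted p under 0.05, 0 by DESeq2 or limma), and nicotianamine and long-distance Fe transport genes had a median of -0.09 over 8 genes (0 called by edgeR, 2 at an unadjusted p under 0.05, 1 by DESeq2 and 0 by limma).

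Fe storage genes had the opposite direction. All 6 tested of 8 listed had an interaction above 0, with a median of 0.71, and edgeR called 0 of them (3 at an unadjusted p under 0.05, 1 by DESeq2 and 1 by limma). FER1 (AT5G01600) had 115, 110 and 131 CPM with Fe, 125, 120 and 98.2 CPM with Fe and flg22, 26.2, 37.2 and 82.2 CPM without Fe, and 80.6, 64.1 and 76.0 CPM without Fe but with flg22. The library that stands apart, -Fe replicate 3, lay far above the rest of its group. With it the FER1 interaction was 0.66 (95% interval -0.03 to 1.34, adjusted p = 0.675), and without it 1.28 (adjusted p = 0.00528). VTL1 (AT1G21140), a vacuolar Fe transporter, had 1.03, 1.11 and 2.34 CPM in the untreated -Fe group, 3.13, 2.80 and 2.86 CPM without Fe but with flg22, and 4.21 to 6.6 CPM in the groups with Fe. Its interaction was 1.09 (95% interval 0.38 to 1.80, adjusted p = 0.265), and 1.56 without -Fe replicate 3 (adjusted p = 0.0337).

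Because the Fe response of WT shares libraries with the interaction, Fe-responsive genes were also chosen in untreated fls2, taking those that were called there and changed 2-fold or more. Of 62 genes raised in fls2, 60 had a WT interaction below 0 and 10 were called, all lower (0.133% of all genes were), with 37 at an unadjusted p under 0.05, 16 by DESeq2 and 13 by limma. The median was -1.01, with quartiles of -1.26 and -0.76, against quartiles of -0.10 and 0.11 over all genes. In WT the median Fe deficiency effect of these 62 genes was 2.03 on the log2 scale without flg22 and 0.99 with flg22. Fe deficiency was called for 58 of them without flg22 (5.97% of all genes) and for 18 with it (0.138% of all genes). Leaving out 1 WT library at a time gave medians of the interaction from -1.27 to -0.82. The number called was 4 without +Fe replicate 1, 5 without +Fe replicate 3 and 4 without -Fe flg22 replicate 2.

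The 10 called genes were ZIF1, NRAMP4, BTS, IREG2, HMA3, NET3A, ORG1, AT2G42750, AHP4 and PEP2. In fls2, which chose these genes, the median effect of Fe deficiency was 1.91 without flg22, and in the separate flg22-treated fls2 libraries it was 2.12. Of the 22 genes lowered in fls2, 18 had a WT interaction above 0, the median was 0.62, and the median WT Fe deficiency effect was -0.94 without flg22 and -0.43 with it. Of them 1 was called, UMAMIT29, and the number ran from 0 to 5 with 1 library left out, with 5 without -Fe replicate 3.

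**Figure D4:**
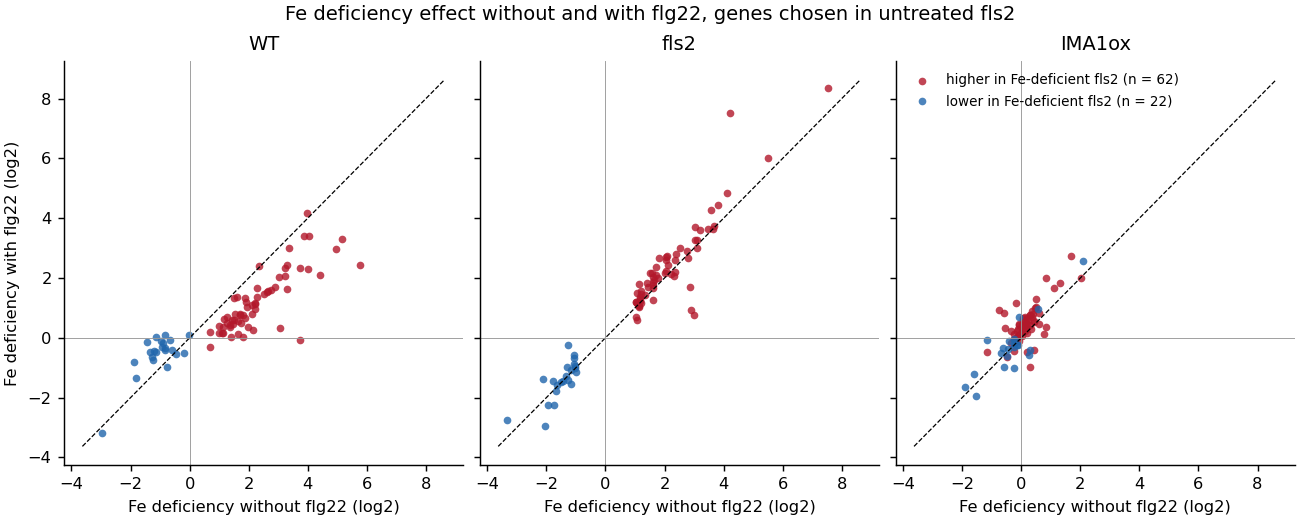
Log2 effect of Fe deficiency with flg22 (vertical axis) against that without flg22 (horizontal axis) in WT, fls2 and IMA1ox, for genes chosen in untreated fls2, with the dashed line marking equal effects. In WT most of the 62 raised genes lie below the line (medians 2.03 and 0.99), in fls2 the medians are 1.91 and 2.12, and in IMA1ox they are 0.15 and 0.42.

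Genes chosen for their response to flg22 in IMA1ox with Fe had medians of the WT interaction nearer to 0. Of 312 genes raised at least 2-fold there, 3 were called in the WT interaction, all lower (0.133% of all genes were), 41 had an unadjusted p under 0.05, DESeq2 called 8 and limma 2. The median interaction was -0.27, with quartiles of -0.73 and 0.08, and 210 of the 312 lay below 0. Their median flg22 effect in WT was 1.62 with Fe and 1.41 without. Of 390 genes lowered there, edgeR called 0 (17 at an unadjusted p under 0.05, 0 by DESeq2 and 1 by limma). Their median was 0.05, with 208 above 0, on flg22 effects of -1.36 and -1.21. When chosen in IMA1ox without Fe, 696 raised genes had a median of -0.17, with 439 below 0. The 574 genes lowered there had a median of 0.13, with 364 above 0.

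Other hormone, defence and nutrient lists held 1 called gene between them, UGT76B1 among 12 salicylic acid and pipecolate genes (median interaction -0.12, 10 below 0, 4 at an unadjusted p under 0.05, 2 by DESeq2 and 1 by limma). Of the defence lists, the median was 0.00 over 15 jasmonate genes, -0.16 over 14 ethylene genes, 0.24 over 15 indole glucosinolate and camalexin genes, -0.01 over 16 class III peroxidase and RBOH genes and -0.18 over 16 phenylpropanoid genes. In these 5 lists edgeR, DESeq2 and limma called 0 genes, and 1, 1, 3, 3 and 8 genes had an unadjusted p under 0.05. Over all genes edgeR called 0.246%, and 7.65% had an unadjusted p under 0.05. In lists of this size, here and below, 0 called is near the share of all genes. The called class III peroxidase PER5 was counted with the immunity markers and is not among these 16 peroxidase and RBOH genes. Of the nutrient lists, the median was 0.30 over 6 zinc deficiency genes, 0.05 over 11 copper genes, 0.13 over 13 sulfur genes, 0.47 over 7 nitrate genes and 0.14 over 11 phosphate genes. Again the 3 tools called 0, with 1, 2, 2, 2 and 2 genes at an unadjusted p under 0.05. The 10 abscisic acid and dehydration genes had a median of 0.32 (0 called by edgeR, 5 at an unadjusted p under 0.05, 1 by DESeq2 and 0 by limma). All 9 hypoxia genes lay above 0 (median 0.40), and neither they nor 11 aquaporins (median -0.11) nor 6 reference genes (median 0.00) held a gene called by any of the 3 tools or with an unadjusted p under 0.05. The median was 0.00 for root hair, 0.10 for dividing cell, 0.01 for stele, -0.22 for root cap, -0.04 for Casparian strip and 0.13 for green shoot genes.

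In fls2, the receptor mutant, edgeR called 0 genes in the same interaction (0.00%), and DESeq2 and limma called 0 as well. At an unadjusted p under 0.05 there were 521 genes (2.56%, against 7.65% in WT). That share is below what the threshold would give without any effect. Whether the spread shared by all groups is too wide for fls2 was not tested. Of the 50 WT genes, 18 had the WT sign in fls2, 8 of the 23 and 10 of the 27, where 52.3% of all genes did. The difference between the WT and fls2 interactions was called for 1 gene (0.00491%), ZIF1, at -1.30 (adjusted p = 0.0162). That test takes the WT values that chose the 50 genes. It was not called for the other 49, so a difference from fls2 was not shown gene by gene for them. NRAMP4, BTS, ATPK7, BTSL2, LAC7, AT3G44326, AT5G40510 and FMO GS-OX4 missed the threshold narrowly, each at an adjusted p of 0.0537 in edgeR. For the 62 Fe-responsive genes the median interaction was 0.20 in fls2 and 0.27 in IMA1ox.

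In IMA1ox, which has the receptor, 36 genes (0.177%) were called in the interaction, 28 higher and 8 lower. Of the 27 WT genes with a lower effect, 4 had the WT sign in IMA1ox, and of the 23 with a higher effect, 9 did, where 48.0% of all genes did. The difference between the WT and IMA1ox interactions was called for 105 genes (0.516%), among them 28 of the 50, 19 of the 27 and 9 of the 23, with the caveat that the WT values chose them. The Fe deficiency effect itself was small in untreated IMA1ox for the 62 Fe-responsive genes, with a median of 0.15. One IMA1ox library, without Fe and with flg22, replicate 1, stood apart from its group, and without it and WT -Fe replicate 3 the genotypes differed in 279 genes and 462 genes were called in IMA1ox.

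**Figure D5:**
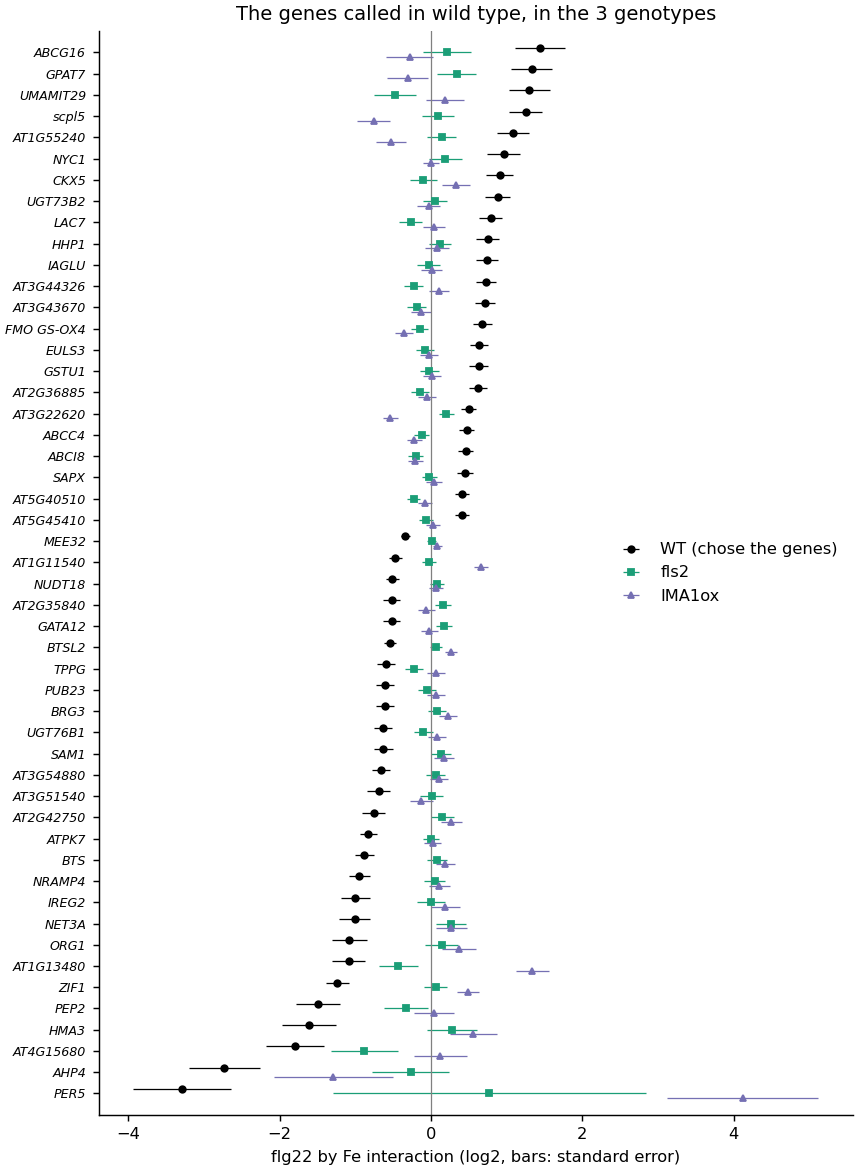
Log2 flg22 by Fe interaction of the 50 genes called in WT, in WT, fls2 and IMA1ox, with standard errors as bars (12 libraries per genotype). The WT values are those that chose the genes; the fls2 values lie around 0, with 18 of the 50 on the WT side, and the IMA1ox values have 13 of the 50 on the WT side.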

How the data were processed

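The deposited count table holds raw read counts per gene for 36 libraries, and a second table deposited by the authors holds the same counts scaled by 1 constant per library, a CPM-like signal. The submitters' processing notes name STAR 2.7.0a, edgeR 3.36.0 and TAIR10. The counting tool and strand setting are not given in the sources used here. Of 24532 loci, 1161 had no count and 24528 matched the RefSeq table of assembly TAIR10.1, used for symbols only.

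Counts were fitted with edgeR 4.0.16 in R 4.3.3 (robust quasi-likelihood F-test, TMM factors of 0.967 to 1.05, filterByExpr with a minimum count of 10, 12 group means over all 36 libraries, 24 residual degrees of freedom), and p-values were adjusted by Benjamini-Hochberg over 20354 genes. Standard errors are the log2 value over the root of F. All libraries entered so that the groups share an estimate of spread. Alternatives were RLE factors, library totals, other filters, DESeq2 1.42.0, limma 3.58.1 (trend, on log2 of the deposited signal plus 1), WT alone, the replicate number as a term, and leaving out libraries. On simulated data for the WT interaction (20316 genes), 77.6% of 67 genes changed 1.5-fold were recovered. The shares were 91% of 67 changed 2-fold and 100% of 66 changed 4-fold, with 10 false calls. Changes were set only in genes with a WT mean of at least 5 CPM, and no simulated library stood apart. These shares therefore need not hold for genes at lower levels or with outlying libraries.

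Named genes are the 12 largest called differences each way with a group mean of at least 5 CPM, called members of 31 gene lists (376 genes, 358 tested) and a set of known Fe and immune genes named whatever their result. Members and lists were chosen with earlier results of these data known. Counts for a list are over its tested genes.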

Additional observations from a re-analysis of the deposited data

Results flagged for a closer look

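The flg22 by Fe interaction differed between WT and another genotype, by the edgeR test of the difference itself, for 29 of the genes named here. For the called genes the WT values that enter the difference also chose the gene. The test against fls2 gave a difference of -1.30 for ZIF1 (adjusted p = 0.0162).

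Against IMA1ox the WT interaction was lower by these log2 differences. Metal and Fe genes had -1.73 (ZIF1), -2.17 (HMA3), -1.18 (IREG2), -1.06 (NRAMP4), -1.07 (BTS) and -0.79 (BTSL2). Immune and peroxidase genes had -7.40 (PER5), -4.02 (PER4, which was not called in WT) and -0.72 (UGT76B1). PER4 and PER5 are neighbouring paralogs, and reads shared between them were not separated here. The remaining genes had -2.43 (AT1G13480), -1.45 (ORG1), -1.28 (NET3A), -0.85 (ATPK7), -1.03 (AT2G42750), -0.77 (AT3G54880), -0.80 (SAM1), -0.82 (BRG3), -0.57 (NUDT18), -1.13 (AT1G11540) and -0.42 (MEE32).

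The WT interaction was higher than in IMA1ox by 1.64 for GPAT7, 2.01 for scpl5, 1.61 for AT1G55240, 0.91 for UGT73B2 and 0.83 for AT3G43670. It was higher by 0.67 for ABCI8, 0.69 for ABCC4, 1.04 for AT3G22620 and 1.04 for FMO GS-OX4. One IMA1ox library of the -Fe flg22 group lay over 2-fold from its group mates in 252 genes, and its part in these differences was not tested gene by gene.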

How the results depend on the processing

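None of the 50 called genes changed direction under any setting run. RLE factors and DESeq2 kept all 50 calls, library totals and limma 47, the absent filter 46 and the 5 CPM filter 45 of the 46 genes it tested. For the WT interaction, DESeq2 called 131 genes (63 higher, 68 lower), WT alone 19 (9 and 10), a 2-fold minimum 14 (5 and 9) and the fit without the 2 libraries that stood apart, added after the data were seen, 88 (39 and 49). Leaving out 1 library gave 20 to 61 genes, 10 to 34 higher and 10 to 40 lower. Deviations of WT libraries from their group means had same-number correlations of -0.165 to 0.313 and different-number correlations of -0.229 to 0.187. No regular pairing by replicate number was seen, though these values do not exclude one. The fit with the replicate block called 65 genes, 38 higher, with 49 of the 50 kept and HMA3 lost (adjusted p = 0.0612).

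Fe deficiency without flg22 gave 753 genes in WT alone and 698 to 1275 with 1 library left out. With flg22 it gave 75 by DESeq2, 0 by edgeR in WT alone (1776 at an unadjusted p under 0.05) and 8 to 160 with 1 library left out. The IMA1ox interaction gave 126 genes by DESeq2 and 462 without the 2 libraries. The difference from IMA1ox gave 268 and 279, and that from fls2 gave 30 and 13, with 5 by library totals, 5 with the 5 CPM filter, 9 by limma and 3 with the replicate block. Of the fls2-chosen sets, the raised genes held 4 to 15 calls and medians of -1.27 to -0.82 with 1 library left out. The lowered genes held 0 to 5 calls and medians of 0.41 to 0.81, with 2 calls when chosen in flg22-treated fls2 and 5 without the 2 libraries.

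Of 26 genes followed though not called, 9 changed sign somewhere. Without +Fe flg22 replicate 3 the interaction was 2.08 for IRT1, 1.77 for FRO2, 1.15 for bHLH38, 2.42 for bHLH100 and 1.89 for MYB72. By limma it was 0.62 for IRT1, -1.49 for S8H, -0.76 for CYP82C4 and 0.03 for FRK1. S8H had -2.83 without +Fe replicate 2 and -0.14 without -Fe flg22 replicate 1. CYP82C4 had -1.34 and -0.48 without these, and -0.13 and -0.02 without +Fe flg22 replicates 1 and 2. FRK1 had 0.31 without -Fe replicate 1, and WRKY33 0.01 without -Fe replicate 3 and 0.00 without the 2 libraries. At the other end of the range with 1 library left out, the interaction was -0.99 for IRT1, -1.66 for FRO2, -0.91 for bHLH38, -1.24 for bHLH100, -2.18 for MYB72, 4.06 for S8H, 3.27 for CYP82C4, -0.42 for FRK1 and -0.20 for WRKY33. The cause of these changes was not tested.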
